A study of Mus musculus with 8 samples.

Results

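The 51 genes described here mark the phases of the cell cycle. They were taken by symbol from the 16119 genes of the deposited table, in which all 51 were found and all passed the filter on low values (a minimum of 10 normalized counts in 2 or more libraries). By role, and in the capitals of the table, 15 serve DNA replication (MCM2 to MCM7, PCNA, GINS2, CDC6, CDT1, CDC45, RRM1, RRM2, TYMS and UHRF1) and 26 serve mitosis (MKI67, TOP2A, CCNA2, CCNB1, CCNB2, CDK1, BUB1, BUB1B, AURKA, AURKB, PLK1, CDC20, CDCA8, CENPA, CENPE, CENPF, KIF11, KIF20A, KIF23, TPX2, UBE2C, BIRC5, NUSAP1, PRC1, ECT2 and ANLN). A further 4 are cyclins of G1 (CCND1, CCND2, CCNE1 and CCNE2), 4 are transcription factors of the cell cycle (E2F1, E2F8, FOXM1 and MYBL2) and 2 code for inhibitors of cyclin-dependent kinases (CDKN1A and CDKN2A). RNA was measured in mouse thyroid follicular cell organoids (TFCOs), which are cystic structures grown from dissociated thyroid, and in thyroid and lung tissue. Each of the lines mThy14 and mThy16 gave a library at early and at late passage, and the tissues gave 2 libraries each, so that 4 groups of 2 libraries were compared. All 8 libraries came from wild type C57BL/6 mice with no treatment, and the TFCOs were grown in medium with EGF, FGF10, forskolin, R-spondin and the TGFβ inhibitor A83-01. The methods state that organoids came from female mice. A line descends from the thyroid of a single mouse, and its early and late libraries are passages of that line rather than separate animals. The labels give no age and do not say whether the tissue libraries came from separate mice, so p-values measure the spread between these libraries.

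A dividing cell copies its DNA in S phase and separates the copies in M phase. Cyclin D with its kinases inactivates the retinoblastoma proteins in G1, which frees E2F factors to turn on the replication genes. The mitosis genes follow later, under a complex that contains MYBL2 and FOXM1 and binds CHR elements in their promoters, and p21 (Cdkn1a) and the products of Cdkn2a hold the cycle back. Follicular cells of the adult thyroid divide rarely.

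Promoters of the members that varied most between TFCO libraries were searched for words linked to the replication and mitosis roles. Matches were sought on both strands for 4 E2F words (TTCCCGC or TTCGCGC, and also TTGCCGC or TTGGCGC), for the CHR words (TTTGAA or else TTCGAA), and for CCAAT, the word bound by NF-Y. An E2F word and CCAAT can share bases, and a match is a description of the letters and not a bound site. The 3 replication genes and the 3 mitosis genes with the largest range among those matched are shown from 250 bases before the start to 30 bases from it on, 5′ to 3′ along the gene, from RefSeq on GRCm38.p6, with every match in capitals.
Cdc45 (chr16:18811943-18812222, minus strand): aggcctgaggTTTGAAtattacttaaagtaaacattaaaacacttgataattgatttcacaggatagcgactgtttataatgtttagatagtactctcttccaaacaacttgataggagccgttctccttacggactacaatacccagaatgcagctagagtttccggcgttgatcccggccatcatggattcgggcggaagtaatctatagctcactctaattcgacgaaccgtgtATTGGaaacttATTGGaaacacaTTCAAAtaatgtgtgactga
Rrm2 (chr12:24708004-24708283, plus strand): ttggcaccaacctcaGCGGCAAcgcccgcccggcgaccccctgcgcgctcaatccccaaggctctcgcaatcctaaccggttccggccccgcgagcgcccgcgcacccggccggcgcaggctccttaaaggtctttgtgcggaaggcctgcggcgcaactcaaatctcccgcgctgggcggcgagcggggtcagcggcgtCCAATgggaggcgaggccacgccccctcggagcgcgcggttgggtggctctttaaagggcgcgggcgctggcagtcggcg
Mcm3 (chr1:20820283-20820562, minus strand): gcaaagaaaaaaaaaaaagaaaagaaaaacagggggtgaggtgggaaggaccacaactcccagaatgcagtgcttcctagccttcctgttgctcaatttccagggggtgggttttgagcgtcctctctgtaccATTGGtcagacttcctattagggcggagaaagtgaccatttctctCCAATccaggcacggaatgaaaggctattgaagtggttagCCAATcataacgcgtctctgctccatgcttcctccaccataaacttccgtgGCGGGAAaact
Bub1 (chr2:127831830-127832109, minus strand): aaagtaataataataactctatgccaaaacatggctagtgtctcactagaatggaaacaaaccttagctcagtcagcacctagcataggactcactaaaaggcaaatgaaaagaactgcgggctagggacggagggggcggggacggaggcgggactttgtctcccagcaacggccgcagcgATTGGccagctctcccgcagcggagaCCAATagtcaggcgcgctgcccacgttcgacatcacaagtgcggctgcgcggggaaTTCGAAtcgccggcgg
Kif23 (chr9:61946770-61947049, minus strand): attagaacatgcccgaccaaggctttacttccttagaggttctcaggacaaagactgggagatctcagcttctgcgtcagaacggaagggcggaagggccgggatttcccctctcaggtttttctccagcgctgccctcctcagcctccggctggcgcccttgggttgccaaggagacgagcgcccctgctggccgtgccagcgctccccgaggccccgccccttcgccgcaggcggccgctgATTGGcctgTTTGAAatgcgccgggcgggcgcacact
Plk1 (chr7:122159185-122159464, plus strand): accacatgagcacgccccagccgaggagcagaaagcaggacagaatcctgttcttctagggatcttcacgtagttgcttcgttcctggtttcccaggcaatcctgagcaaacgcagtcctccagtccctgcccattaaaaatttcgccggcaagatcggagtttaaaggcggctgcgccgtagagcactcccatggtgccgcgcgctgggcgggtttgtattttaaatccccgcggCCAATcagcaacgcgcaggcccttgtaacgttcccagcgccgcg
Counting the start as base 1, Bub1 held a CHR word at bases 15 to 20 with CCAAT at -42 to -38, and Kif23 held a CHR word at bases 3 to 8 with CCAAT on the other strand at -7 to -3. Plk1 had CCAAT at -14 to -10, and its CHR word lay at bases 31 to 36, just past the stretch shown. Rrm2 held an E2F word at -235 to -229. Mcm3 held 1 at bases 20 to 26, and a further pair that overlap each other, on opposite strands, at bases 40 to 46 and 43 to 49, past the stretch shown. Cdc45 had no E2F word in its window, and held a pair of CHR words.

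Promoters were matched for 41 of the 51 members, without Mcm4, Gins2, Ccna2, Aurkb, Kif20a, Tpx2, Ccnd1, Ccnd2, Ccne2 and Foxm1. In windows of 300 bases (250 before the start and 50 from it on), an E2F word was found in 9 of 13 replication genes (69.2%), in 4 of 22 mitosis genes (18.2%) and in 9.69% of all 27025 promoters. A CHR word was found in 18 of 22 mitosis genes (81.8%), in 3 of 13 replication genes (23.1%) and in 19.4% of all promoters. CCAAT was common to both roles, at 76.9% of the replication genes and 86.4% of the mitosis genes against 37.9% of all promoters. A CHR word together with CCAAT was found in 17 of 22 mitosis genes (77.3%) and in 7.7% of all promoters. Much of the CHR share lay just past the start: in the 250 bases before it the share was 40.9% for mitosis genes and 17.4% for all promoters.

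**Figure D1:**
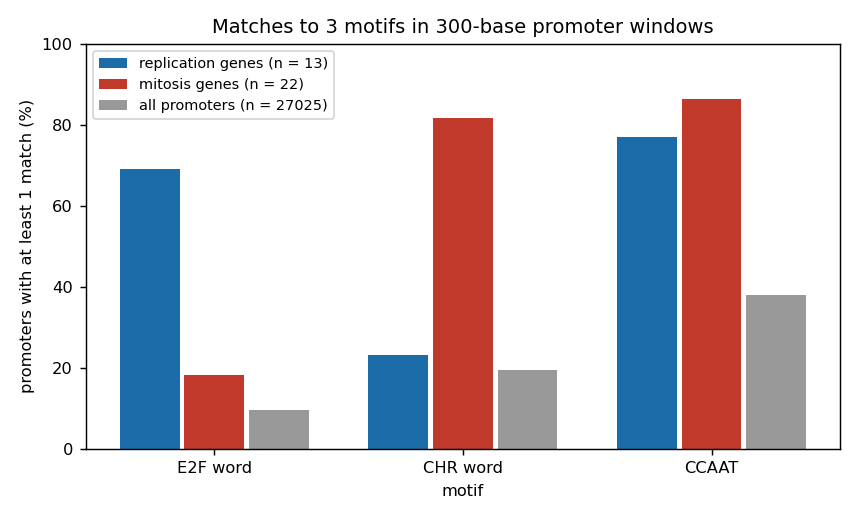
Share of promoters with at least 1 match (y axis, %) to the E2F words, the CHR words and CCAAT (x axis) in 300-base windows, for replication genes (blue, n = 13), mitosis genes (red, n = 22) and all 27025 promoters (grey). E2F words were most frequent in replication genes (69.2%) and CHR words in mitosis genes (81.8%), and CCAAT was frequent in both.

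The libraries held 9755081 to 16904865 reads on genes, and values are normalized counts, that is reads divided by the size factor of the library. Follicular markers (Tg, Pax8, Tshr, Foxe1, Nkx2-1) summed to between 19738 and 158851 in TFCOs, to 1546937 and 2191460 in thyroid tissues 1 and 2, and to at most 2932 in lung. Most of the thyroid sums was Tg, with 1526002 and 2175016, against 9532 to 126441 in TFCOs. Tshr was higher in TFCOs (1882 to 8582) than in thyroid tissue (1287 and 1087), and Pax8, Foxe1 and Nkx2-1 overlapped between them. All 5 follicular markers were above 0 in every TFCO library. Leukocyte markers summed to at most 115 in TFCOs and to 753 and 1221 in thyroid tissue, stromal markers to at most 329 against 25906 and 20174, endothelial markers to at most 522 against 2573 and 8073, muscle markers to at most 2681 against 49897 and 140953, and parathyroid and C cell markers to at most 97.0 against 46812 and 91894. The tissues thus hold other cell types, and in bulk RNA fewer dividing cells cannot be told apart from less RNA per cell. The libraries also fell into 2 sets that do not follow the groups: 44 genes had no reads in thyroid tissue 2 or in lung and a minimum of 50 normalized counts in the TFCOs and in thyroid tissue 1, and 16 genes showed the reverse. Only thyroid tissue 1 shares a set with the TFCOs, so group and set cannot be told apart between TFCOs and lung, whereas thyroid tissue 2 shares the set of lung.

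Across the 8 libraries the cell cycle genes were highest in mThy16 and lowest in late mThy14, and mitosis genes spanned a wider range than replication genes. On the log2(normalized counts + 1) scale, with each gene set to its own mean, the median over mitosis genes was 1.60 in early and 1.62 in late mThy16, 0.56 in early mThy14 and -2.24 in late mThy14. For replication genes the same medians were 0.85, 0.93, 0.52 and -0.75. In thyroid tissue 1 mitosis genes stood at -0.94 and replication genes at 0.04, whereas in thyroid tissue 2 the order was turned, with 0.34 and -0.59. Lung tissues 1 and 2 gave -0.19 and -0.53 for mitosis and -0.32 and -0.39 for replication. The median over all genes tested stayed between -0.03 and 0.05 in every library.

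**Figure D2:**
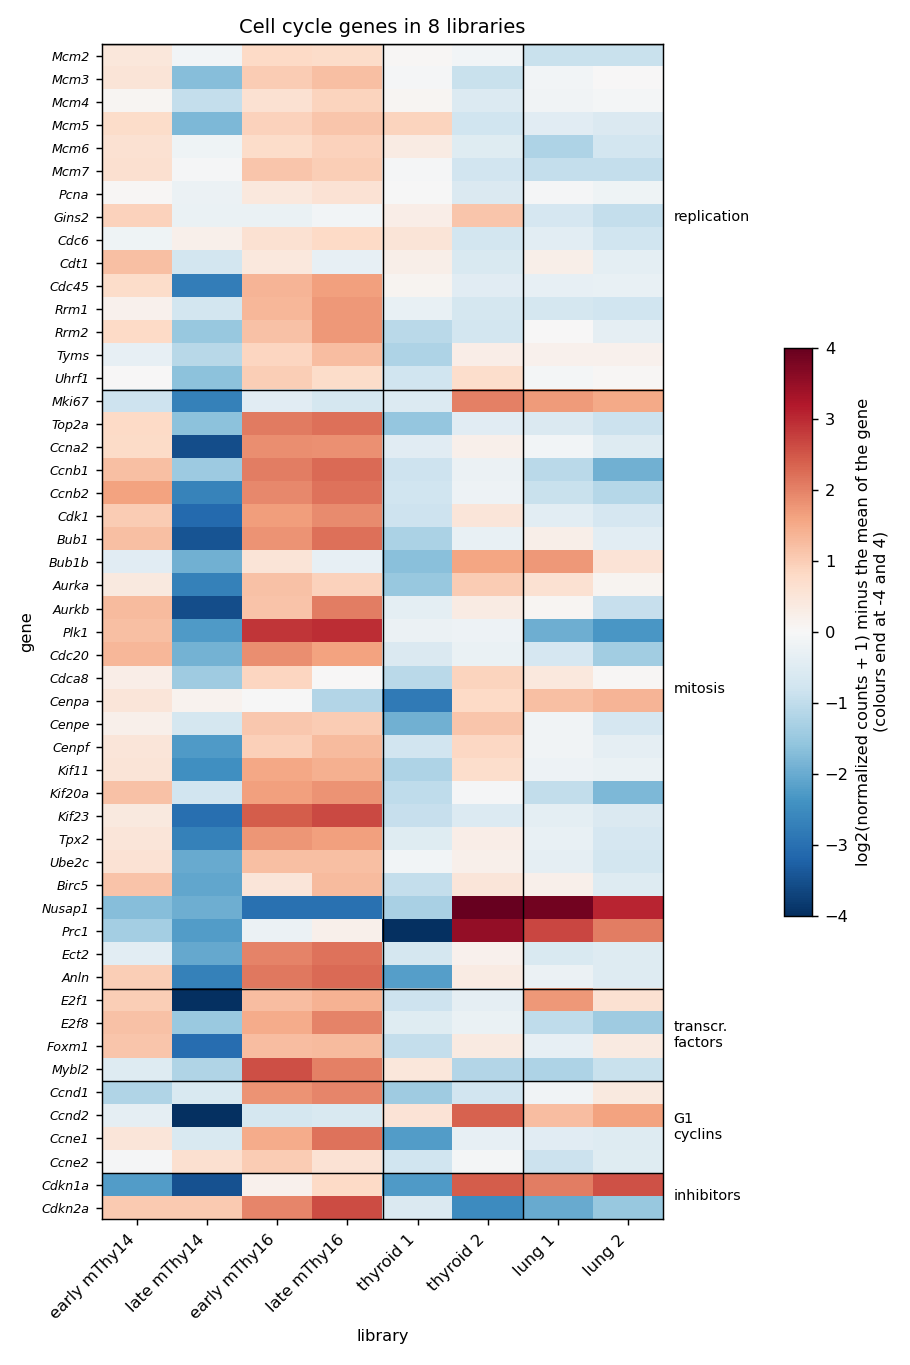
Heat map of the 51 cell cycle genes (rows, grouped by role) in the 8 libraries (columns). Colour gives log2(normalized counts + 1) minus the mean of the gene, with the scale ending at -4 and 4. Late mThy14 is blue in most rows, both mThy16 libraries are red, and Mki67, Nusap1, Prc1, Ccnd2 and Cdkn1a are red in thyroid 2 and lung instead.

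No cell cycle gene passed the test of late against early TFCOs. None of the 51 members, and 0% of the 14703 genes tested, passed an adjusted p of 0.05 in limma. No member had an unadjusted p under 0.05 either, against 1.13% of all genes (without late mThy16, 30 members and 640 genes had), and voom on whole reads also gave 0 members, at both the adjusted and the unadjusted threshold. The median log2 difference was nonetheless -1.28 over mitosis genes and -0.40 over replication genes, against -0.02 over all genes tested. The sign of both medians rested on late mThy14. Without it they became 0.47 and 0.35, which sets late mThy16 against the early libraries of both lines and so includes the line difference. Within mThy16 alone they were 0.11 and 0.18. Without late mThy16 they became -3.08 and -1.37.

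The change with passage is given for each line, from 1 library per passage. In mThy14, late passage was below early passage for 26 of 26 mitosis genes (median log2 difference -2.87), for 14 of 15 replication genes (median -1.03) and for 4 of 4 transcription factors (median -3.42), against a median of -0.04 over all genes tested. In mThy16, 15 mitosis genes were higher late, 10 were lower and Nusap1 had no reads (median 0.11), and 11 of 15 replication genes were higher (median 0.18). Late mThy14 was more than 4-fold below early mThy14 for 17 of 26 mitosis genes, 4 of 15 replication genes and 25 of all 51 members, where 8.34% of all genes tested were. In mThy16 no member was that far below its early library, where 3.08% of all genes were. Late mThy14 was the lowest of the 8 libraries for 19 of 26 mitosis genes and 7 of 15 replication genes, 31 of 51 members in all, against 11.4% of all genes tested. By sign alone, late below early in mThy14 and above it in mThy16 was seen for 31 of 51 members and for 25.2% of all genes.

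The difference between the lines in their change with passage was also tested gene by gene, with the spread taken from the tissues alone, since each TFCO library is then a group of 1. This spread includes the thyroid tissues, which lie in different library sets, and holds no replicate of a TFCO library, so that neither a call nor the lack of one bears on the lines. None of the 51 members passed (0% of all genes), and 16 had an unadjusted p under 0.05, against 2.07% of all genes. Leaving out 1 tissue library at a time gave 3 to 27 members at the unadjusted threshold, and without thyroid tissue 1 the adjusted threshold was passed by 102 genes and 0 members. voom gave 0 members and 12 at the unadjusted threshold. The median difference of differences was -2.86 over mitosis genes and -1.30 over replication genes. The lower values in late mThy14 are thus a comparison of 2 libraries, without a replicate of that line at that passage. Intervals for single ratios, given with the genes that follow, are exact 95% intervals and cover counting error only.

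**Figure D3:**
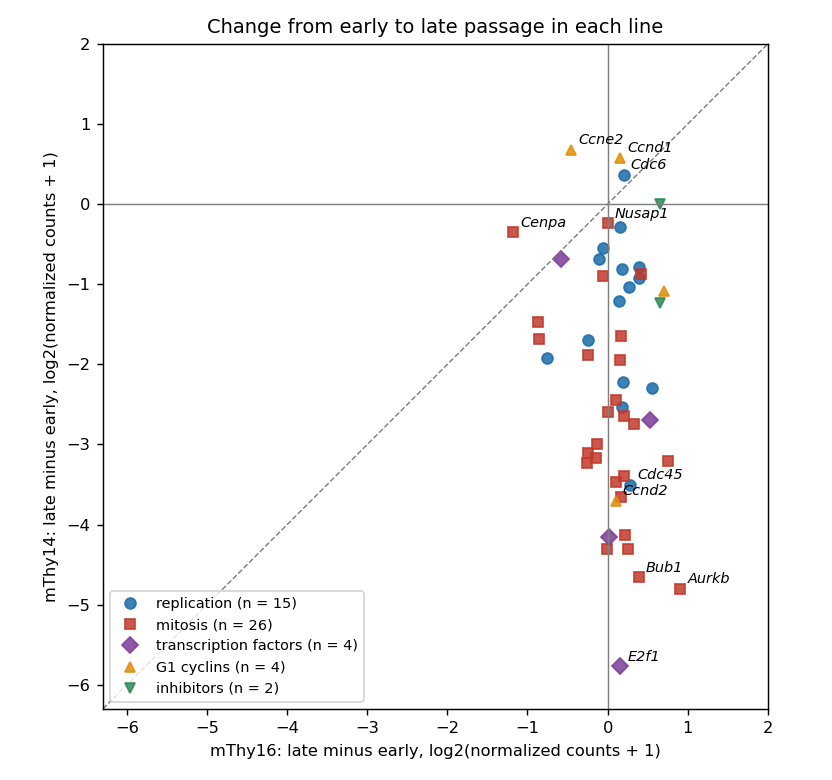
Late minus early log2(normalized counts + 1) of the 51 genes in mThy16 (x axis) and mThy14 (y axis), coloured by role. The dashed line marks equal change in both lines. Most points lie near 0 on the x axis and far below 0 on the y axis, down to -5.77 for E2f1, and 4 genes lie at or above 0 in mThy14 (Ccne2, Ccnd1, Cdc6 and Cdkn2a).

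Among the replication genes, Mcm2, Mcm6, Mcm7 and Pcna kept more of their level in late mThy14 than Mcm3, Mcm5, Cdc45 and Rrm2. Pcna, the sliding clamp of DNA polymerases, went from 984 normalized counts at early to 805 at late passage in mThy14 and from 1291 to 1441 in mThy16. Thyroid tissues 1 and 2 held 951 and 637 of Pcna and lung tissues 927 and 844, so that the tissues overlapped the TFCOs. Mcm6 had 1391 and 792 in mThy14, 1515 and 1717 in mThy16, 1144 and 645 in thyroid and 386 and 536 in lung. Mcm2, Mcm6 and Mcm7 belong to the same ring of 6 proteins as Mcm3, Mcm4 and Mcm5, and their late-to-early ratios in mThy14 were 0.685, 0.569 and 0.620.

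Mcm3 and Mcm5, subunits of the same ring, were lower in late mThy14. Mcm3 had 568 early and 121 late in mThy14 (ratio 0.213, interval 0.171 to 0.262), 805 and 918 in mThy16, 381 and 214 in thyroid and 368 and 401 in lung. Mcm5 had 551 early and 94.7 late in mThy14 (ratio 0.172, interval 0.135 to 0.216), 625 and 708 in mThy16, 611 and 188 in thyroid and 239 and 220 in lung. For both genes late mThy14 was below every other library. Mcm4 lay between, at a ratio of 0.490 (interval 0.415 to 0.579).

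Cdc45, which joins the MCM ring and the GINS complex into the active helicase, showed the widest range of the replication genes. It had 92.8 normalized counts early and 7.29 late in mThy14, a ratio of 0.0785 (interval 0.0304 to 0.171) from 66 and 7 reads. In mThy16 it had 144 and 174, in thyroid 59.9 and 40.6 and in lung 44.4 and 45.2. Gins2, of the GINS complex, had a ratio of 0.426 (interval 0.290 to 0.619) in mThy14, and unlike most members it was higher in thyroid tissue 2 than in any TFCO library.

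The 2 subunits of ribonucleotide reductase, which makes the building blocks of DNA, differed in their range. Rrm2, the subunit whose level follows S phase, had 302 early and 60.4 late in mThy14 (ratio 0.200, interval 0.147 to 0.268), 391 and 575 in mThy16, 81.6 and 103 in thyroid and 174 and 135 in lung. Rrm1, the large subunit, had 933 and 493 in mThy14 (ratio 0.529, interval 0.469 to 0.596), 2105 and 2750 in mThy16, 676 and 511 in thyroid and 505 and 481 in lung. Both were above all other libraries in mThy16. Tyms, which makes thymidylate, had a ratio of 0.580 in mThy14 and 1.32 in mThy16.

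Uhrf1, which keeps DNA methylation through replication, had 119 and 36.4 in mThy14, 233 and 197 in mThy16, 67.5 and 192 in thyroid and 111 and 120 in lung. The licensing factors Cdc6 and Cdt1 went separate ways in mThy14. Cdt1 had a ratio of 0.261 (interval 0.188 to 0.359) there and was also lower late in mThy16 (0.591, interval 0.432 to 0.803). Cdc6 was the only replication gene with more counts late than early in mThy14, at a ratio of 1.3 whose interval of 0.856 to 2 spans 1.

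Among the mitosis genes, late-to-early ratios in mThy14 went down to 0.0274, and 7 of the 26 (Ccnb1, Plk1, Cenpa, Cenpe, Kif20a, Nusap1 and Prc1) did not have their lowest value in late mThy14. Top2a, which untangles sister chromatids and had the highest mean of this role, had 753 early and 138 late in mThy14 (ratio 0.184, interval 0.151 to 0.223). It had 1839 and 1991 in mThy16, 148 and 316 in thyroid and 287 and 238 in lung. Late mThy14 was thus the lowest library, and both mThy16 libraries were above the other 6.

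The kinase Bub1, of the spindle checkpoint, had the widest range of all mitosis genes over the TFCO libraries. It had 129 early and 4.16 late in mThy14, from 92 and 4 reads (ratio 0.0322, interval 0.00859 to 0.0853). In mThy16 it had 198 and 260, in thyroid 22.9 and 45.2 and in lung 66.2 and 41.8. Aurkb, the kinase of the chromosomal passenger complex, had 114 and 3.12 in mThy14, from 81 and 3 reads (ratio 0.0274, interval 0.00554 to 0.0831), and had 104 and 197 in mThy16, 35.9 and 59.9 in thyroid and 49.4 and 24.3 in lung. It was the mitosis gene furthest above its early value late in mThy16 (ratio 1.89, interval 1.48 to 2.43).

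Kif23 and Anln, which serve the cleavage of the daughter cells, were high in mThy16. Kif23 had 216 early and 19.8 late in mThy14 (ratio 0.0914, interval 0.0535 to 0.148), 901 and 1040 in mThy16, 87.1 and 112 in thyroid and 126 and 111 in lung. Anln had 315 and 23.9 in mThy14 (ratio 0.0760, interval 0.0472 to 0.117), 686 and 771 in mThy16, 33.7 and 202 in thyroid and 135 and 111 in lung. Late mThy14 was the lowest library for both, and the groups of tissue and TFCO overlapped through it.

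Plk1, a kinase of mitotic entry and spindle assembly, had 252 and 21.9 in mThy14 (ratio 0.0869, interval 0.0525 to 0.137), 795 and 855 in mThy16, 93.6 and 95.9 in thyroid and 27.6 and 20.9 in lung. Late mThy14 lay between the lung tissues. Ccna2, the cyclin of S and G2, had 266 and 12.5 in mThy14 (ratio 0.0470, interval 0.0239 to 0.0841), 570 and 568 in mThy16, 114 and 183 in thyroid and 147 and 109 in lung. Cdk1, the kinase that drives mitosis, had 235 and 12.5 in mThy14 (ratio 0.0532, interval 0.0270 to 0.0954), 366 and 427 in mThy16, 64.2 and 161 in thyroid and 86.3 and 71.5 in lung.

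For the B cyclins, the partners of Cdk1, the ratio in mThy14 was 0.156 for Ccnb1 and 0.0480 for Ccnb2, and in mThy16 1.15 and 1.19. Among the remaining members of this role, Aurka, Birc5, Cdc20, Tpx2, Kif11, Cenpf, Ube2c, Mki67 and Kif20a had ratios from 0.0956 to 0.258 in mThy14. Cdca8, Ect2, Bub1b and Cenpe had ratios from 0.296 to 0.531. Cenpa stood at 0.781, with an interval of 0.485 to 1.26 that spans 1. Nusap1 and Prc1 had at most 6 reads in either mThy14 library, with intervals of 0.00943 to 58.1 and 0.102 to 2.08.

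Of the 4 transcription factors, 3 were lower in late mThy14 than in any other library. E2f1, the activator E2F of S phase, had 167 early and 2.08 late, from 119 and 2 reads, a ratio of 0.0124 (interval 0.00149 to 0.0460) that was the lowest of the 51 members. In mThy16 E2f1 had 198 and 221, in thyroid 46.8 and 64.5 and in lung 282 and 129.

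Foxm1, an activator of mitosis genes, had 166 and 8.33 in mThy14 (ratio 0.0502, interval 0.0212 to 0.102), 184 and 187 in mThy16, 39.2 and 98.7 in thyroid and 61.1 and 98.4 in lung. E2f8, a repressing E2F, had 119 and 17.7 in mThy14 (ratio 0.148, interval 0.0825 to 0.251), 146 and 210 in mThy16, 37.0 and 43.3 in thyroid and 25.1 and 18.9 in lung. Mybl2, the MYB protein of the complex that binds CHR elements, was low in mThy14 already at early passage, with 23.9 and 14.6, against 215 and 143 in mThy16. It had 47.9 and 14.8 in thyroid and 14.2 and 18.2 in lung. Its ratio in mThy14 was 0.610, with an interval of 0.278 to 1.31 that spans 1.

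The G1 cyclins differed from each other in their change with passage. Ccnd1, cyclin D1, was the most abundant of them and separated the lines: it had 1373 and 2060 in mThy14, 10771 and 12018 in mThy16, 1160 and 1859 in thyroid and 2841 and 4108 in lung. Its ratio in mThy14 was 1.5 (interval 1.39 to 1.62), so that it was higher in late mThy14 while the mitosis genes were lower. Ccnd2, cyclin D2, had 714 and 54.1 in mThy14 (ratio 0.0758, interval 0.0558 to 0.101), 557 and 596 in mThy16, 1341 and 4755 in thyroid and 2138 and 2802 in lung. All 4 TFCO libraries were below all 4 tissues for this gene.

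The E cyclins, which start S phase with Cdk2, also differed. Ccne1 had 40.8 and 18.7 in mThy14 (ratio 0.460, interval 0.240 to 0.856), 82.2 and 134 in mThy16, 5.44 and 23.0 in thyroid and 20.9 and 20.2 in lung. Ccne2 went from 82.9 to 133 in mThy14 (ratio 1.61, interval 1.17 to 2.23) and went from 175 to 127 in mThy16 (ratio 0.727, interval 0.569 to 0.925). In the tissues it had 49.0 and 80.2 in thyroid and 46.9 and 60.7 in lung.

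Neither inhibitor had a higher level in late than in early mThy14 beyond counting error. Cdkn1a, which codes for p21, had 21.1 and 8.33 in mThy14, from 15 and 8 reads (ratio 0.395, interval 0.145 to 0.992). In mThy16 it had 116 and 182 (ratio 1.57, interval 1.23 to 2.01), in thyroid 20.7 and 564 and in lung 434 and 608. Cdkn2a, whose locus codes for p16 and ARF and which the table lists under 1 symbol, had 75.9 and 76.0 in mThy14 (ratio 1, interval 0.695 to 1.45). It had 145 and 227 in mThy16 (ratio 1.57, interval 1.26 to 1.96), 23.9 and 5.53 in thyroid and 8.38 and 12.1 in lung. Both inhibitors were thus higher in mThy16, the line with more of the mitosis genes, and none of these differences passed the test across all genes (adjusted p in limma of 0.239 and 0.582 between the lines).

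Rrm1, Ect2 and Ccnd1 were lower in mThy14 than in mThy16 TFCOs. In limma, with the 2 passages of a line as its samples, 3 of 51 members were lower in mThy14 and 0 higher, where 2.37% and 0.973% of all genes tested were (3.34% in all). Rrm1 differed by -1.82 on the log2 scale (standard error 0.35, adjusted p = 0.0302), Ect2 by -3.31 (0.61, 0.0249) and Ccnd1 by -2.76 (0.36, 0.00639). Ect2, which activates RhoA for cytokinesis, had 112 and 35.4 in mThy14, 597 and 674 in mThy16, 91.4 and 171 in thyroid and 98 and 104 in lung. On GRCm38 these genes lie on chromosome 7 at 102441695 to 102469771 (Rrm1), chromosome 3 at 27097222 to 27153878 (Ect2) and chromosome 7 at 144929931 to 144939925 (Ccnd1). An unadjusted p under 0.05 was reached by 23 of 51 members and by 16% of all genes. The comparison is of 1 line with 1 line. Its error joins the spread over passages with the spread between the libraries of each tissue, since all 8 libraries were in the fit. Ccnd1 kept its call in the alternatives that used all 4 TFCO libraries, but Ect2 and Rrm1 lost theirs with no mean-variance trend (adjusted p = 0.0706 and 0.119 in limma) and with only the libraries compared (0.0669 and 0.0755), and Rrm1 also with quantile normalization (0.0598). Without early mThy14, 17 members and 343 of the 14703 genes were called, without late mThy14 only Ccnd1 and 235 genes, without early mThy16 0 members and 38 genes, and without late mThy16 0 members and 25 genes.

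At early passage, mThy14 was below mThy16 for 13 of 15 replication genes (median -0.47) and 22 of 26 mitosis genes (median -0.71). Each line gave 1 library there, and the median over all genes tested was 0.06. At late passage the medians were -1.83 and -3.68, against 0.00. Both mThy16 libraries were above both mThy14 libraries for 42 of 51 members (13 of 15 replication and 21 of 26 mitosis genes), where 26.4% of all genes tested were. The reverse held for Cenpa and Nusap1, 2 of 51, where 29.1% of all genes were. In mThy16, 35 of 51 members were above each of the other 6 libraries, against 11.7% of all genes. Follicular markers ran the other way: they summed to 158851 and 97716 in early and late mThy14 and to 24025 and 19738 in mThy16. The part of follicular differentiation in the levels of the cell cycle genes was not tested.

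**Figure D4:**
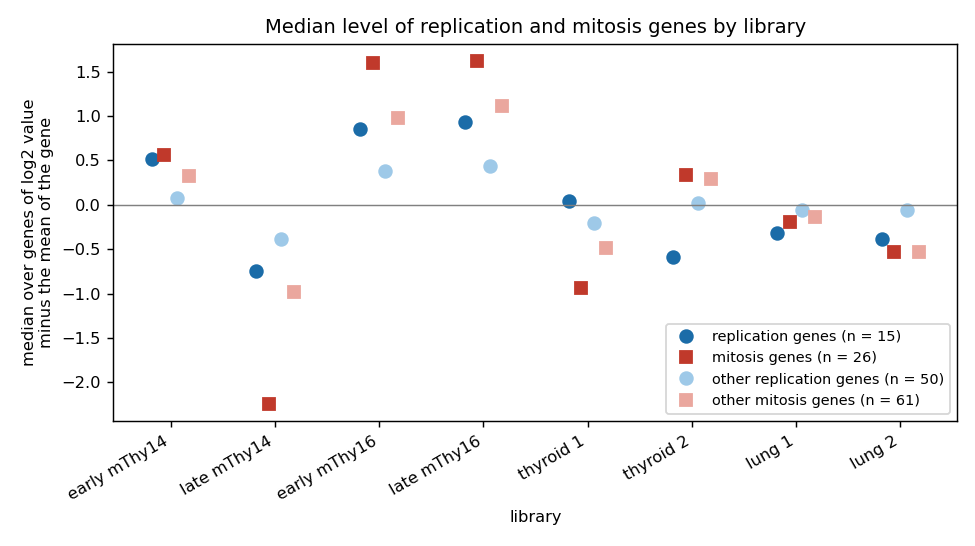
Median over genes of log2(normalized counts + 1) minus the mean of the gene (y axis) in each of the 8 libraries (x axis), for replication genes (blue circles) and mitosis genes (red squares), and in pale colours for further genes of both roles. Mitosis genes range from -2.24 in late mThy14 to 1.62 in late mThy16, and replication genes from -0.75 to 0.93.

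TFCOs and thyroid tissue were compared to ask whether the cultured cells carried more cell cycle RNA than the organ. With the passages of a line averaged, 0 of 51 members passed in limma, where 3.65% of all genes did (0.599% higher and 3.05% lower in TFCOs). An unadjusted p under 0.05 was reached by 3 members and by 18.6% of all genes, and voom gave 0 members and 3. The median log2 difference was 0.50 over replication genes and 0.53 over mitosis genes, against 0.05 over all genes tested. Without thyroid tissue 1, 5 members (Cdkn2a higher in TFCOs, and Mki67, Ccnd2, Nusap1 and Prc1 lower) and 4085 of the 14703 genes were called, and without thyroid tissue 2, 0 members and 161 genes. With quantile normalization the medians were 0.84 over replication and 1.17 over mitosis genes, where that of all genes moved by 0.13. The medians also differed by tissue library. Against thyroid tissue 1, of the same library set, mitosis genes were higher in TFCOs by a median of 1.35 (24 of 26 higher) and replication genes by 0.21. Against thyroid tissue 2 the medians were -0.06 (13 of 26) and 0.79.

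The same comparison is given for each line. Against thyroid tissue 1, mThy16 was higher by a median of 2.58 for mitosis genes (24 of 26) and 0.71 for replication genes (13 of 15). For mThy14 the medians were 0.26 (15 of 26) and -0.03 (7 of 15), which joined 1.8 and 0.57 at early passage with -1.29 and -0.53 at late passage. Early mThy14 thus stood above thyroid tissue 1 for 24 of 26 mitosis genes and late mThy14 below it for 22 of 26. All 4 TFCO libraries were above both thyroid tissues for Ccne2 and Cdkn2a, 2 of 51 members, where 17.2% of all genes were. For Ccne2 the margin was small (82.9 against 80.2), and for Cdkn2a the log2 difference was 3.21 (standard error 1.02, adjusted p = 0.158 in limma).

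The 2 thyroid tissues themselves stood apart. Thyroid tissue 2 was above thyroid tissue 1 for 26 of 26 mitosis genes (median log2 difference 1.20) but below it for 11 of 15 replication genes (median -0.58), against a median of -0.07 over all genes tested. Prc1, which bundles the microtubules of the central spindle, had 0 reads in thyroid tissue 1 and 275 normalized counts in thyroid tissue 2, at least 84.1-fold higher, taking 3 reads as the limit that a count of 0 allows in that library. Nusap1, a microtubule-binding protein of the spindle, had 2.18 and 124, from 2 and 134 reads (ratio 0.0176, interval 0.00211 to 0.0649). Both genes also had few reads in every TFCO library, at most 24 for Prc1 and 1 for Nusap1. Markers of other cell types also differed. In thyroid tissue 2 the summed level was higher for skeletal muscle (140953 against 49897, with 6 of 6 genes higher), for parathyroid and C cells (91894 against 46812, 4 of 4), for endothelium (8073 against 2573, 4 of 6) and for leukocytes (1221 against 753, 6 of 8). The stromal sum was lower there (20174 against 25906), although 4 of 6 genes were higher. Their part in the result was not tested.

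Several of these genes divided the library sets without overlap. Mki67, Bub1b, Cenpa, Nusap1, Prc1, Ccnd2 and Cdkn1a were higher in each library of thyroid tissue 2 and lung than in any of the other 5, which is 7 of 51 members where 20.3% of all genes did so. Mcm2, Mcm6, Mcm7, Cdc6 and Cdkn2a were higher in each of the other 5 libraries, 5 of 51 where 23.3% of all genes did so. Both shares of members were below those of all genes. The first list held 5 of 26 mitosis genes (19.2%) and no replication gene, and the second held 4 of 15 replication genes (26.7%) and no mitosis gene. The 19.2% and the 26.7% were near the shares of all genes, 20.3% and 23.3%. These genes were named after their values were seen. Of them, Ccnd2 (at most 714 in TFCOs, 1341 or more in tissue) also separated the TFCOs from all tissues. So did Cdkn2a, with 75.9 or more in TFCOs and at most 23.9 in tissue. Nusap1 did so by few reads, with at most 1.41 in TFCOs and 2.18 in thyroid tissue 1. The share of all genes with that split was not counted.

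Mki67, the usual marker of dividing cells, had 45 and 11.4 in mThy14, 57.4 and 48.1 in mThy16 and 54.4 in thyroid tissue 1, but 329 in thyroid tissue 2 and 261 and 231 in lung. Nusap1 had 1, 1, 0 and 0 reads in early and late mThy14 and early and late mThy16, against 113 and 63.4 normalized counts in lung. Prc1 had 8.43 and 4.16 in mThy14 and 19.8 and 26.8 in mThy16, against 152 and 99.8 in lung. Cenpa, the histone of the centromere, had 52.0 and 40.6 in mThy14, 36.6 and 15.7 in mThy16 and 4.35 in thyroid tissue 1, against 64.5 in thyroid tissue 2 and 86.3 and 95 in lung. Bub1b, of the spindle checkpoint, had 39.4 and 13.5 in mThy14, 78.2 and 42.5 in mThy16 and 16.3 in thyroid tissue 1, against 162 and then 184 and 78.9. In mThy16, where Top2a, Plk1 and Kif23 were above every tissue, Mki67, Nusap1 and Prc1 were below thyroid tissue 2 and lung.

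**Figure D5:**
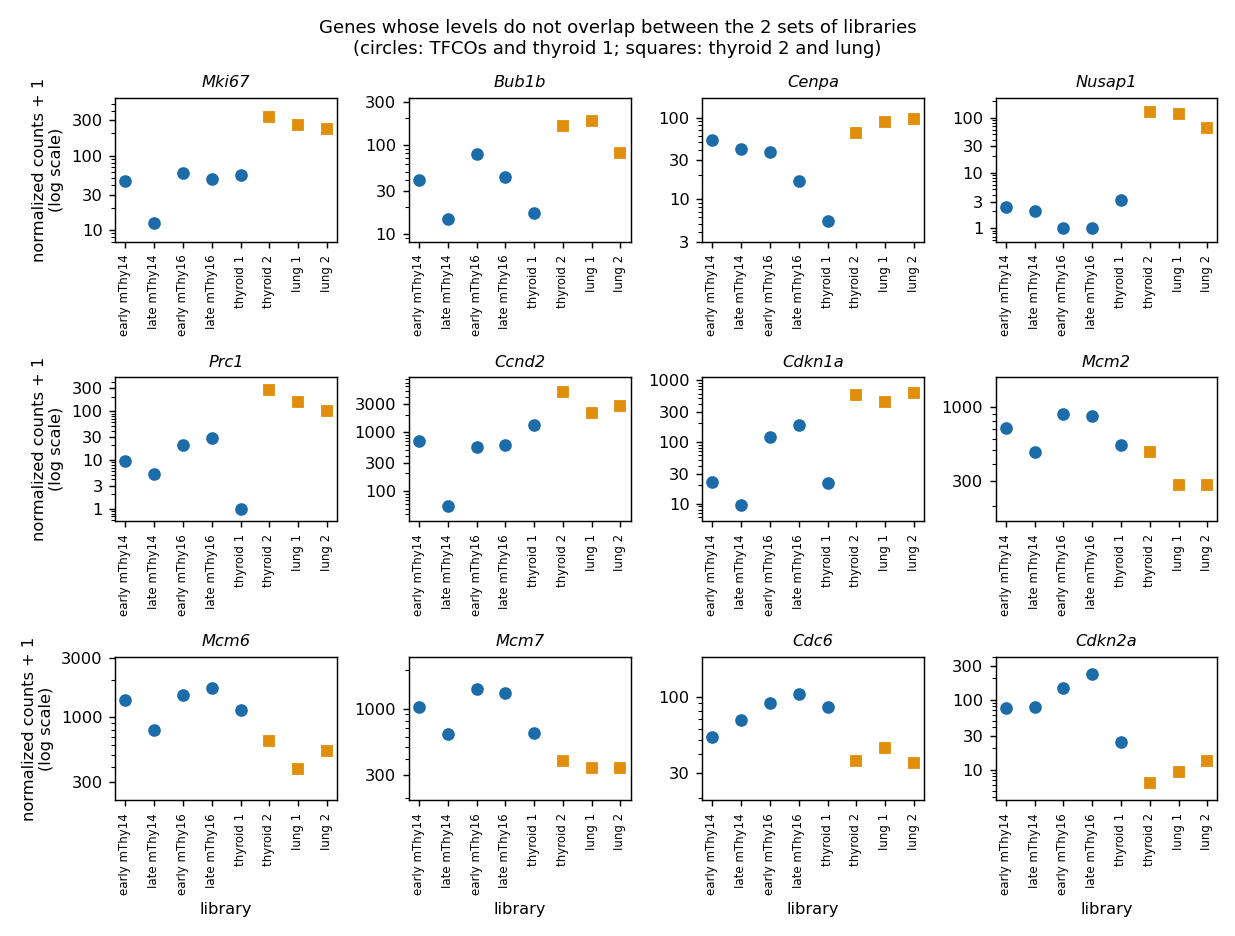
Normalized counts + 1 (y axis, log scale) of the 12 genes whose levels do not overlap between the 2 sets of libraries, in each of the 8 libraries (x axis). Circles are TFCOs and thyroid tissue 1, and squares are thyroid tissue 2 and lung. The squares lie above the circles for Mki67, Bub1b, Cenpa, Nusap1, Prc1, Ccnd2 and Cdkn1a and below them for the other 5 genes.

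Lung served the study as an unrelated control tissue, and all of it lies in the other library set. Of the 51 members, 3 were higher in TFCOs than in lung and 2 lower in limma, where 9.83% and 13.5% of all genes were (23.4% in all). At an unadjusted p under 0.05 there were 10 members and 44.7% of all genes. The spread of this fit also came from the thyroid tissues, which lie in different library sets. With only the libraries compared, 9 members were called, 5 of them higher, and the calls over all genes rose too. Mcm2 was higher by 1.35 on the log2 scale (standard error 0.38, adjusted p = 0.0435), Mcm6 by 1.51 (0.43, 0.0459) and Mcm7 by 1.62 (0.43, 0.0391). The difference of Ccnd2 was -2.86 (0.71, 0.0338), lower in TFCOs, and the fitted difference of Nusap1 was -5.85 (1.70, 0.0477), a size that depends on the pseudocount at so few reads. Mcm2 had 708 and 485 in mThy14, 900 and 862 in mThy16, 537 and 482 in thyroid and 281 and 282 in lung. Mcm7 had 1026 and 636 in mThy14, 1420 and 1316 in mThy16, 644 and 389 in thyroid and 342 and 342 in lung. All 5 called genes also divided the library sets without overlap, as 20.3% and 23.3% of all genes tested did in the 2 directions. The share among all called genes was not counted. A call between TFCOs and lung itself favours such a split, so the overlap is no result about the members. All 5 lost the call with no mean-variance trend (adjusted p of 0.0716 to 0.0956 in limma), and Mcm2, Mcm6 and Mcm7 also with scaling to the same total (0.0572 to 0.0684). Nusap1 also lost it with a pseudocount of 5, with no filter, with quantile normalization and with voom, and Mcm2 and Mcm6 with voom. Without late mThy14 the count was 11 members and 3236 of the 14703 genes, without early mThy14 1 member (Ccnd2) and 2996 genes, without lung tissue 1 0 members and 319 genes, and without lung tissue 2 0 members and 248 genes.

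No member passed the test of thyroid against lung tissue in limma, where 6.05% of all genes did (2.89% higher and 3.16% lower in thyroid). No member had an unadjusted p under 0.05 in limma or voom, against 22.9% of all genes in limma. Without thyroid tissue 2, Cenpa, Nusap1 and Prc1 were called lower in thyroid, 3 of 51 members, where the calls over all genes went from 889 to 4311 of 14703. Without either lung library 0 members and 58 genes were called. Within their shared set, thyroid tissue 2 was above the mean of the lung tissues for 23 of 26 mitosis genes (median 0.75) and for 7 of 15 replication genes (median -0.13), against a median of 0.00 over all genes tested. Plk1 was the member furthest above lung there, by 1.95.

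Further genes of each role were listed alongside the members. Of 50 other replication genes, 35 were lower late than early in mThy14 (median -0.53) and 20 in mThy16 (median 0.07). Of 61 other mitosis genes, 53 were lower in mThy14 (median -1.63) and 26 in mThy16 (median 0.16). Among 12 other genes of G1 and the E2F family the medians were -0.43 and -0.08, and among 19 other inhibitors and brakes of the cycle -0.22 and 0.12. None of these genes passed in limma for late against early TFCOs, where none had an unadjusted p under 0.05 either. None passed in the test of the lines' difference, where 1 of the replication, 4 of the mitosis and 1 of the G1 and E2F genes had an unadjusted p under 0.05. Between the lines, Smc2, of condensin, differed by -2.31 (standard error 0.51, adjusted p = 0.0494 in limma), with 164 and 85.3 in mThy14 and 522 and 673 in mThy16. Ccng1, a p53 target, differed by -2.07 (0.38, 0.0246), with 971 and 1521 against 4718 and 5510. No other gene of the 4 lists was called there, where 3.34% of all genes were.

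Between TFCOs and thyroid tissue, 1 gene of the 4 lists (50, 61, 12 and 19 genes) was called, where 3.65% of all genes were. It was Myc, an activator of growth and of G1 genes, higher in TFCOs by 2.52 (standard error 0.52, adjusted p = 0.0494 in limma), with 1172 and 1983 in mThy14, 1874 and 1614 in mThy16 and 440 and 182 in thyroid. In lung it had 117 and 79.5. Against lung, 3 genes of the 4 lists were higher in TFCOs (Myc, Cks2 and E2f5) and 4 were lower (Dna2, Tfdp2, Cdkn1c and Gadd45b). Of all genes tested, 9.83% were higher and 13.5% lower there. Myc did not follow the mitosis genes in late mThy14, where its value was the highest of the 8 libraries.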

How the data were processed

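RNA of 4 TFCO, 2 thyroid and 2 lung libraries was analysed. The deposited table holds normalized counts by the authors, a signal equal to the reads of a gene over the size factor of its library, and the study's methods name DESeq2 for this step. The submitters' processing notes name BWA 0.6.2-r126 and the builds hg38 and mm10. The methods describe a stranded polyA kit, whereas the labels describe an adapted CEL-Seq library, so strand and counting are unsure. Values above 0 were whole multiples of a fixed step in each library (tolerance 0.01 reads, 100% of values), and dividing by it gave reads.

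Values were taken as log2(normalized counts + 1) and tested with limma 3.58.1 (R 4.3.3, mean-variance trend, two-sided) over the 14703 genes (of 16119) with a minimum of 10 in 2 or more libraries, with Benjamini-Hochberg adjustment over all of them and a threshold of 0.05. The pseudocount lowers fold changes of weak genes. Groups have 2 libraries, whose spread limits the precision, and an exact permutation test cannot go below p = 0.333. Passages of a line were averaged for comparisons with tissue. Each main fit held all libraries, and its groups shared 1 estimate of the spread. The fits were also run on simulated counts, which held no spread between lines, tissues or library sets. That run checked the code and does not bear on the error in these data.

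The members, lists and tests were chosen with earlier results of these data known. Values in every library are given for members called in any comparison, the 4 of highest mean and the 6 of largest range over TFCO libraries among replication and among mitosis genes, and all of the smaller roles. Early and late libraries pair by line (correlation of deviations 0.477); tissue numbers pair nothing (-0.073). Sequences came from RefSeq (GRCm38.p6, first start listed), positions from GENCODE on GRCm38. Alternatives were the pseudocount, filter, normalization, trend, libraries fitted, replicate block and leaving out each library; voom on the reads was added after seeing the data, in place of a count test. Some genes are not reported here.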

Additional observations from a re-analysis of the deposited data

Results flagged for a closer look

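The medians of replication and of mitosis genes had opposite signs in the 2 lines for the change with passage and stood in mThy16 beside a median of 0.01 over all genes tested. The median late minus early log2 difference of replication genes was -1.03 in mThy14 and 0.18 in mThy16, and that of mitosis genes was -2.87 in mThy14 and 0.11 in mThy16. Each line has 1 library per passage, so the difference between these medians was not tested. Late was below early in mThy14 and above it in mThy16 for 31 of 51 members, and for 25.2% of all genes tested. The sign alone was counted. The ratios of these members in mThy16 ran from 1.01 (Ube2c, interval 0.827 to 1.22) to 1.89 (Aurkb, interval 1.48 to 2.43), and some intervals span 1. Gene by gene, with the spread of the tissues, the difference passed for 0 of 51 members and 0% of all genes in limma. That spread holds no replicate of a TFCO library, so this outcome does not bear on the lines.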

How the results depend on the processing

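The counts of 0 members for late against early TFCOs, for TFCOs against thyroid tissue, for thyroid against lung tissue and for the lines' difference with passage were also 0 under the other pseudocounts (0.5 and 5), scaling to the same total, no filter, no mean-variance trend and quantile normalization. Medians were computed for late against early TFCOs, TFCOs against thyroid tissue and mThy14 against mThy16 under these settings other than the trend, which does not enter a difference. They kept their sign, and moved by over 1.5 times in TFCOs against thyroid tissue with quantile normalization (from 0.50 to 0.84 for replication and from 0.53 to 1.17 for mitosis genes). For TFCOs against thyroid tissue, 1 member (Cdkn2a) was called with the 4 TFCO libraries as separate samples. For TFCOs against lung tissue, 9 members were called with quantile normalization (8 higher and 1 lower, against 3 and 2) and 9 with only the libraries compared, 2 with scaling to the same total (0 higher and 2 lower), 2 with voom and 1 (Cdkn2a) with no trend. Quantile normalization moved the median of all genes by 0.27 there and by 0.11 between thyroid and lung tissue, and scaling to the same total moved it by -0.13, by -0.1 and, between the lines, by -0.17. For mThy14 against mThy16, 1 member (Ccnd1) was called with no trend, 1 with only the libraries compared and 2 (without Rrm1) with quantile normalization. The cause was not tested. Over all genes, calls between TFCOs and thyroid tissue numbered 536, but 124 with only the libraries compared, 1322 with separate samples and 232 with voom. Between TFCOs and lung they numbered 3435 and 6979 with only the libraries compared, between thyroid and lung 889 and 277, and between the lines 491, 320 with quantile normalization and 219 with no trend.

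Leaving out 1 library at a time gave 0 to 0 members for late against early TFCOs, 0 to 5 for TFCOs against thyroid tissue (5 without thyroid tissue 1, where calls over all genes went from 536 to 4085), 0 to 11 for TFCOs against lung, 0 to 3 for thyroid against lung, 0 to 17 between the lines and 0 to 0 for the lines' difference with passage. The late minus early medians ranged from -1.37 to 0.35 for replication and from -3.08 to 0.47 for mitosis genes, with the higher end without late mThy14. TFCOs minus thyroid ranged from 0.21 to 0.81 and from -0.30 to 1.35, and mThy14 minus mThy16 from -1.70 to -0.60 and from -3.71 to -0.70. A lone library left in a group was assumed to vary like the others. With line as a replicate block, late against early gave 0 members (1 at an unadjusted p under 0.05), and with the tissue number as a block thyroid against lung gave 0 and 756 genes in place of 889, though those numbers pair nothing. The planned edgeR test was not run, since the table was not entered as counts. Genes with few reads (Nusap1, Prc1, and Bub1, Aurka, Aurkb and E2f1 in late mThy14) carry wide counting intervals.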
